A study of Mus musculus with 6 samples.

Results

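Osteopontin, the secreted phosphoprotein encoded by Spp1, and 8 genes for the surface proteins that bind it were followed in mouse dendritic cells (DCs) and in skin wounds that had received such cells. The 9 genes, of 31053 mouse genes measured, were chosen by function: Spp1, Cd44, and the integrin subunit genes Itgav, Itgb1, Itgb3, Itgb5, Itga4, Itga5 and Itga9. The study used Cas9 to remove Ndrg2 from DCs and placed the cells on healing wounds. All 6 libraries came from droplet 3′ single-cell RNA sequencing, with 1 library per condition and hence no replicate of any condition.

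In culture, 3 groups were sequenced: untreated DCs, DCs given vitamin D3 (VD3; 1e-06 M for 24 h from day 7) and DCs in which Ndrg2 had been knocked out (Ndrg2-KO). All 3 groups were grown from bone marrow of wild-type C57/BL6 mice with GM-CSF, and only the cells in suspension were taken. The knockout was made by nucleofection of Cas9 protein with 3 guide RNAs, and the edited cells were a bulk population and not a clone. The labels describe the cultured controls only as untreated, so an effect of nucleofection and an effect of losing Ndrg2 cannot be told apart. The other 3 libraries came from splinted excisional wounds of 6 mm in mice aged 6 weeks (the study ties them to its healing curves of wild-type C57BL6 mice without naming their strain), covered with pullulan-collagen hydrogels and explanted on day 10. Those hydrogels carried control DCs, Ndrg2-KO DCs (500000 cells each) or no cells (blank hydrogel), and each library pooled wounds of 5 mice. The labels call the seeded control DCs untreated, whereas the methods of the study describe control cells nucleofected with non-targeting guides. The wound libraries held cells of the host together with any DCs still present, and no label or reporter count separated both sources.

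Osteopontin works both as a component of the matrix and as a soluble signal of macrophages, neutrophils and osteoclasts. An RGD motif in the protein is bound by integrins that pair the αv chain (Itgav) with a β chain from Itgb1, Itgb3 or Itgb5, and by the α5 chain (Itga5) paired with Itgb1. A neighbouring motif, exposed when proteases such as thrombin cut osteopontin, is bound by the α4 chain (Itga4) or the α9 chain (Itga9), each paired with Itgb1. CD44, better known as the receptor for hyaluronan, binds osteopontin as well. In wounds the protein is known for its role in leukocyte recruitment and in the formation of scar matrix.

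The 250 bases before the start site of Spp1 are shown because Spp1 was the member whose level differed most between libraries. Spp1 lies on mouse chromosome 5, plus strand, from 104435118 to 104441050 (GRCm38, GENCODE annotation). The sequence is chr5:104434861-104435110 from RefSeq (GRCm38.p6, plus strand), with capitals for matches to searched motifs.
Spp1 upstream: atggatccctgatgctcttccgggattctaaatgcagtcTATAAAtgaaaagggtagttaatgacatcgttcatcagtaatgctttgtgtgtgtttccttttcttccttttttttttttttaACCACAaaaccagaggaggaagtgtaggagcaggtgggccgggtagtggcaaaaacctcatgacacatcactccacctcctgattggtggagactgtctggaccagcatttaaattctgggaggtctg
The first run of capitals is a match to the letters of the TATA box (TATAAA), with its first base at position -211 from the start site. The second, at position -128, is a match to the core bound by Runx factors (TGTGGT) read on the minus strand. Whether either match is a working element was not tested. Of 32851 RefSeq windows of 300 bases (250 before to 50 after a start site), 13.6% held TATAAA and 16.8% held TGTGGT on either strand. The vitamin D response half-site GGTTCA, the E-box CACGTG, the AP-1 site TGANTCA and the GC box GGGCGG were also searched on both strands and had no match in the Spp1 window; they occurred in 10.4%, 7.15%, 7.81% and 35.7% of windows. A GC box stood in the windows of 6 receptor genes (Cd44, Itgav, Itgb1, Itgb5, Itga4 and Itga5), while GGTTCA stood in that of Itgb1. The Spp1 stretch was 43.6% G or C. Only these windows were searched, so the lack of a GGTTCA match for Spp1 does not extend to bases farther upstream.

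Cells entered when they had at least 300 genes, fewer than 100000 unique molecular identifiers (UMIs) and a mitochondrial share below 10%. The culture libraries then held 7257 to 8825 cells with median depths of 12089 to 16316 UMIs. The wound libraries held 1948 (control DC), 5681 (Ndrg2-KO DC) and 3403 (blank) cells with median depths of 10795, 4415 and 5603 UMIs. Ndrg2 itself was scarce, at 4.62 CPM (UMIs of the gene per 1000000 UMIs of the library) in untreated, 1.42 in VD3 and 0.884 in Ndrg2-KO DCs. A 3′ read does not show a frameshift in the coding sequence. The DC markers Itgax (146, 77.8 and 263 CPM) and H2-Ab1 (908, 561 and 487 CPM) were present in the untreated, VD3 and Ndrg2-KO cultures, and the fibroblast gene Col1a1 was at or below 0.656 CPM there. Clusters were rebuilt without the 9 genes and carry "-like" names from marker lists, so they may differ from the clusters of the study. Most culture clusters came almost wholly from 1 library, and any pair of libraries shared at most 19 cell barcodes.

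In the cultures, Spp1 was several times higher in Ndrg2-KO DCs than in the other 2 groups. Its level was 520 CPM in untreated, 586 CPM in VD3 and 4392 CPM in Ndrg2-KO DCs. With every cell drawn down to 2000 UMIs, a Spp1 UMI was found in 28.0% (95% Clopper-Pearson interval 27.0 to 29.1) of untreated, 28.6% (27.6 to 29.7) of VD3 and 70.2% (69.2 to 71.2) of knockout cells. One library, Ndrg2-KO, thus stood apart, while the other 2 lay close together. The log2 ratio of Ndrg2-KO to untreated DCs was 3.08 (95% interval 3.07 to 3.09), or 8.44-fold, and that of VD3 to untreated DCs was 0.17 (0.16 to 0.19). With cells under 5% mitochondrial UMIs the VD3 ratio turned to -0.30, whereas the Ndrg2-KO ratio was 3.1. These intervals, and all others given, cover counting error only, because no condition had a second library. Levels summed over a library also cannot tell apart fewer cells of a type and less RNA per cell.

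**Figure D1:**
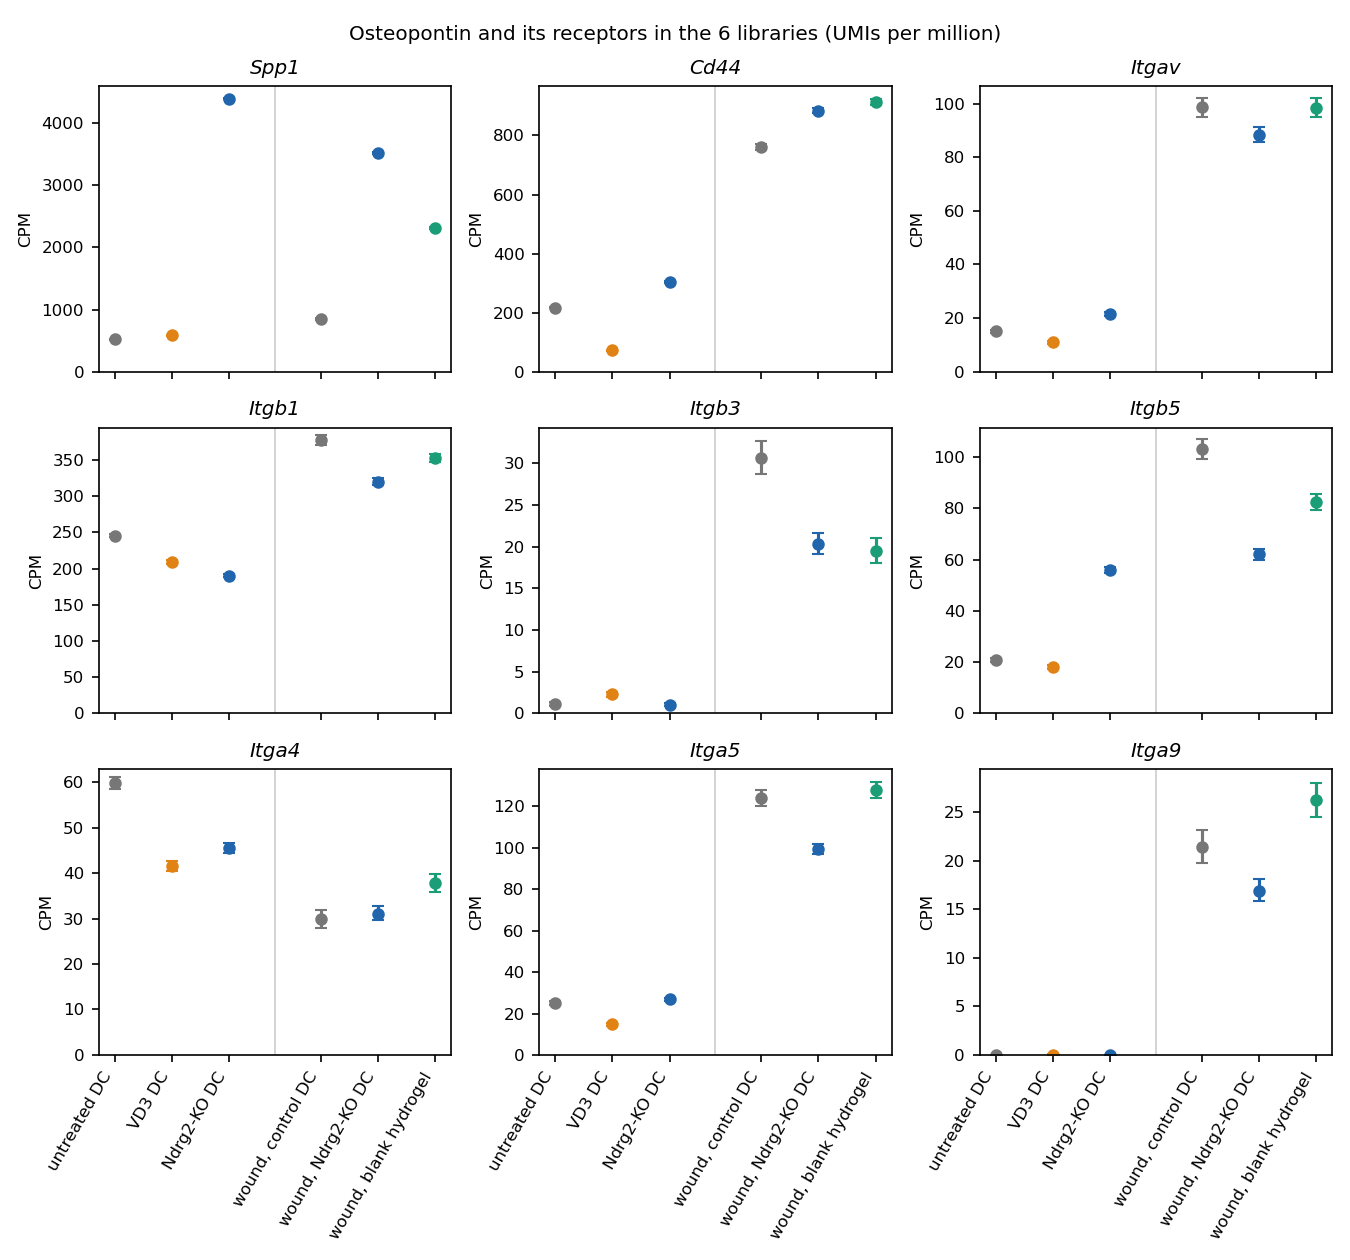
Level of each of the 9 genes in CPM (linear axes from 0) in the 3 culture libraries (left of the line) and the 3 wound libraries (right), with 1 point per library and bars for the 95% Poisson interval. Spp1 reached 4392 CPM in Ndrg2-KO DCs against 520 and 586 CPM in the other cultures, Cd44 was lowest in VD3 DCs at 73.0 CPM, and Itga9 had at most 4 UMIs in a culture.

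Few cells in any culture spent a large part of their RNA on osteopontin, but the Ndrg2-KO culture had more of them. Cells with at least 1% of their UMIs from Spp1 made up 0.138% of untreated (10 cells), 0.227% of VD3 (20 cells) and 8.55% of Ndrg2-KO cells (681 cells). In the Ndrg2-KO library these cells held 53.1% of the Spp1 UMIs, and 72.5% of the cells lay in the premature DC-like cluster. The top 10% of cells by Spp1 UMIs held 71.8%, 76.5% and 60.2% of the Spp1 UMIs of the untreated, VD3 and Ndrg2-KO libraries, so the gene was unevenly spread in each.

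Spp1 followed the maturation state of the DCs. The mature DC-like clusters, with Ccr7, the chemokine receptor that guides DCs to lymph nodes, lay below the premature, proliferating and macrophage-like clusters of the same culture. The main mature cluster of the untreated culture (2604 cells, led by Eno3 and Fscn1) held 35.6 CPM, that of the VD3 culture (3294 cells) 146 CPM and that of the Ndrg2-KO culture (1826 cells, led by Htra1 and Klrd1) 326 CPM. The premature DC-like cluster of the Ndrg2-KO culture, led by Arg1, Apoe and Fabp4, held 5147 CPM over 4020 cells, and a proliferating cluster of the same culture held 6476 CPM over 1065 cells. The untreated culture had its highest levels in a proliferating cluster with 798 CPM and a macrophage-like cluster with 783 CPM. In the VD3 culture the granulocyte- or monocyte-like cluster was as low as the mature cells, at 132 CPM. That culture had 1112 CPM in its macrophage-like cluster, led by Gdf15 and Ms4a7, and 997 CPM in an unnamed cluster led by Elane and Prtn3. No cluster of at least 50 cells in the untreated or VD3 culture came near the levels of the premature Ndrg2-KO cells.

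Since clusters were nearly specific to a library, the same question was asked of states set by marker genes alone, with a cell called premature or mature when it held at least 3 markers of that list at 2000 UMIs. In premature cells Spp1 was at 827 CPM in untreated, 1412 CPM in VD3 and 5522 CPM in Ndrg2-KO DCs. In mature cells it was at 93.4, 230 and 362 CPM. Within each culture the premature cells therefore had the higher level, and within each state the order was Ndrg2-KO, VD3, untreated. Cells with markers of both states lay between at 710, 816 and 2873 CPM. Cells with neither marker set, which these states do not place, were at 480, 932 and 4804 CPM. They made up 19.0% of untreated, 38.8% of VD3 and 2.97% of Ndrg2-KO cells. In the VD3 culture they held 34963 Spp1 UMIs, against 16226 in premature and 14640 in mature cells. The shares of premature cells differed as well, at 35.4% of untreated, 9.38% of VD3 and 63.2% of Ndrg2-KO cells. These states are ranges on a scale: 43.8%, 90.6% and 37.1% of the premature cells of the 3 cultures stood near the limit. The premature list included Fn1 and Mmp12, whose own levels differed between the cultures (below), so the states were not set independently of the treatment. Fn1 also varied with Spp1 over the culture clusters. How much of the Spp1 pattern by state came from the choice of markers was not tested. This grouping was chosen after the data had been seen.

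**Figure D2:**
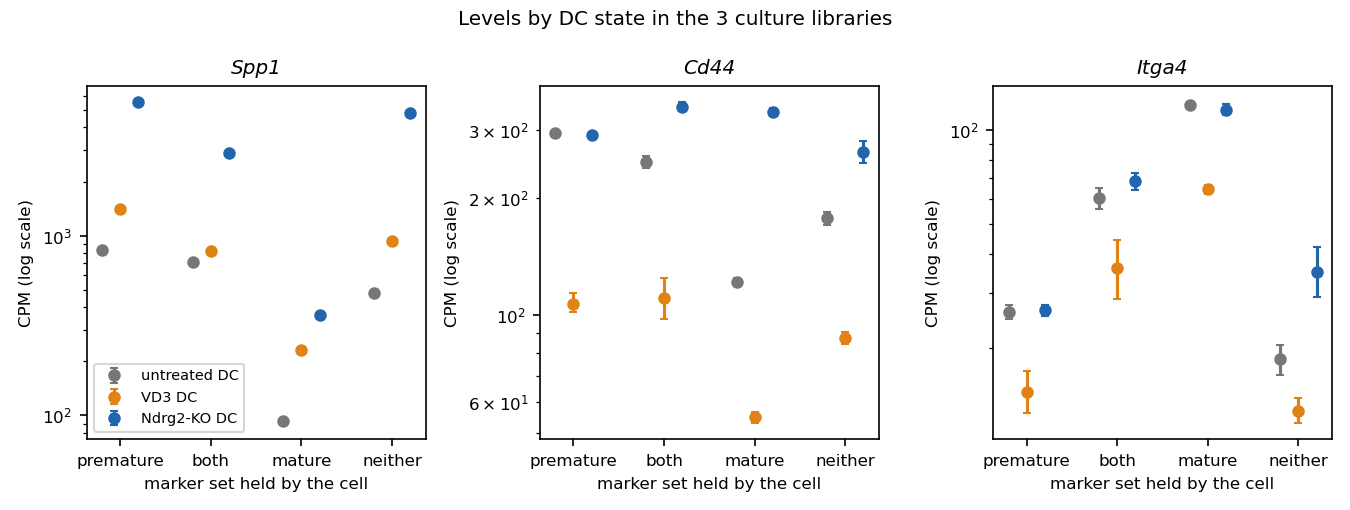
Levels of Spp1, Cd44 and Itga4 (CPM, log axes) in the 3 cultures by the marker set a cell held at 2000 UMIs (premature, both, mature or neither), with bars for the 95% Poisson interval. Spp1 was lowest in the mature cells of every culture (93.4, 230 and 362 CPM) and Itga4 highest there (120, 64.6 and 116 CPM).

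Mature DC-like cells as a class had 35.8 CPM of Spp1 in untreated, 145 CPM in VD3 and 315 CPM in Ndrg2-KO DCs, with log2 ratios to untreated of 2.02 (1.94 to 2.10) and 3.14 (3.06 to 3.22). The 3 values rest on different clusters, which held 95.9%, 94.5% and 86.5% of the mature cells. Of the mature clusters, 2 had at least 50 cells in both the untreated and the Ndrg2-KO culture. In the larger one Spp1 was at 35.6 CPM (2604 cells) and 111 CPM (166 cells), a log2 ratio of 1.65 (1.40 to 1.88). In the smaller, with Ccl5 among its leading genes, it was at 23.0 CPM in 73 untreated, 108 CPM in 172 VD3 and 371 CPM in 118 Ndrg2-KO cells, and the log2 ratio of Ndrg2-KO to untreated DCs was 4.01 (3.05 to 5.17) from 145 and 9 UMIs. As a measure of background, basophil-like cells, identified by Mcpt8 and Prss34, had a Spp1 UMI in 15.4% (untreated) and 15.5% (VD3) of cells, at median depths of 8787 and 6879 UMIs. The main mature clusters had one in 3.35% (2.69 to 4.11) of untreated, 12.6% (11.5 to 13.8) of VD3 and 33.6% (31.5 to 35.8) of Ndrg2-KO cells, so the shares of the untreated and VD3 clusters were no higher than those of the basophil-like cells. The basophil-like level of 113 and 116 CPM rested on 5 cells in each culture, with 65.7% and 59.5% of its Spp1 UMIs, and the untreated cDC1-like cells were lower at 56.8 CPM. No Ndrg2-KO cluster of at least 50 cells was without Spp1: the lowest share, 20.1% (14.3 to 27.1) of cells with a Spp1 UMI, was in the larger of these shared clusters, at a median depth of 7614.5 UMIs. The part of free RNA in the Spp1 of mature Ndrg2-KO cells was not tested.

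CD44 showed another order, with VD3 and not Ndrg2-KO DCs set apart. Cd44 was at 217 CPM in untreated, 73.0 CPM in VD3 and 303 CPM in Ndrg2-KO DCs. The share of cells with a Cd44 UMI was 29.4% (28.4 to 30.5), 13.7% (12.9 to 14.5) and 42.3% (41.2 to 43.4). VD3 DCs were thus lower by 2.97-fold (log2 ratio -1.57, -1.60 to -1.53), and Ndrg2-KO DCs were higher by 1.40-fold (0.48, 0.46 to 0.50). The lower level held in both states: premature cells had 294, 107 and 291 CPM and mature cells 122, 54.7 and 333 CPM in untreated, VD3 and Ndrg2-KO DCs. Premature Ndrg2-KO and untreated cells thus nearly matched, while mature Ndrg2-KO cells were above mature untreated cells. Premature cells held 17200 Cd44 UMIs in the untreated and 29705 in the Ndrg2-KO culture, and mature cells 5482 and 7750. The parts of state shares and of levels within states in the library difference were not tested. An exception was the granulocyte- or monocyte-like cluster, where Cd44 was at 275 CPM in the untreated and 267 CPM in the VD3 culture.

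The β1 chain gene Itgb1, the shared partner of 4 α chains in this set, varied little: it was at 245 CPM in untreated, 209 CPM in VD3 and 190 CPM in Ndrg2-KO DCs. It was highest in mature DC-like cells, at 378, 263 and 302 CPM. Itga4, whose product with β1 also binds VCAM-1, was at 59.9, 41.6 and 45.5 CPM over the whole libraries. By state its levels were 26.1, 14.5 and 26.4 CPM in premature cells and 120, 64.6 and 116 CPM in mature cells of the untreated, VD3 and Ndrg2-KO cultures. Itga4 therefore ran opposite to Spp1 across the states, with mature cells highest in each culture. The mature VD3 cells stood lower than the mature cells of the other cultures, and the untreated and Ndrg2-KO mature DC-like cells differed by a log2 ratio of -0.085 (-0.15 to -0.020).

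Itgb5, whose product pairs with αv in phagocytes, went with Spp1. Its level was 20.7 CPM in untreated, 18.0 CPM in VD3 and 55.9 CPM in Ndrg2-KO DCs, and the log2 ratio of Ndrg2-KO to untreated DCs was 1.43 (1.37 to 1.5). In premature cells it was at 29.8, 35.3 and 65.7 CPM and in mature cells at 8.93, 10.1 and 16.9 CPM, so both states were higher in the Ndrg2-KO culture. The αv gene Itgav was at 15.0, 10.9 and 21.6 CPM, and Itga5, the α chain of the fibronectin receptor, at 24.9, 14.7 and 26.9 CPM. Both were lowest in VD3 DCs, with log2 ratios to untreated of -0.46 (-0.56 to -0.36) and -0.76 (-0.85 to -0.68).

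Itgb3 and Itga9 were nearly missing from the cultures. Itgb3, the β3 chain of platelets and osteoclasts, was at 1.10 CPM in untreated, 2.26 CPM in VD3 and 1.03 CPM in Ndrg2-KO DCs. Basophil-like cells held 77 of the 146 untreated and 190 of the 263 VD3 UMIs, at 124 and 262 CPM, and no other cluster of at least 50 cells exceeded 4.13 CPM. The Ndrg2-KO culture had 1 basophil-like cell. The 2.05-fold higher Itgb3 of VD3 DCs (log2 ratio 1.04, 0.74 to 1.34) thus rested on 77 basophil-like cells, of which 5 held 77.4% of the Itgb3 UMIs of the cluster. Itga9 had 0 UMIs in untreated, 4 in VD3 and 1 in Ndrg2-KO DCs. With 3 UMIs taken as the most that a count of 0 allows, 0 among 132574308 UMIs leaves room for a level of up to 0.0226 CPM.

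Both chains of a receptor were rarely caught in the same cell at 2000 UMIs. The pair Itga4 and Itgb1 was the most frequent, in 5.51% (4.98 to 6.08) of untreated, 2.94% (2.58 to 3.35) of VD3 and 3.68% (3.27 to 4.12) of Ndrg2-KO cells. Mature clusters led, with 11.7% in the untreated, 5.85% in the VD3 and 9.76% in the Ndrg2-KO culture, against 1.82% in the premature Ndrg2-KO cluster. Itgav with Itgb5 was found in 0.0737% of untreated, 0.104% of VD3 and 0.485% (0.343 to 0.665) of Ndrg2-KO cells. Without drawing down, the Itgav and Itgb5 pair was found in 8.30%, 3.69% and 18.2% of cells, with the Ndrg2-KO culture first at both depths. Of 7835 Ndrg2-KO cells, 1 held Itgav with Itgb3.

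Counted over the members with at least 100 UMIs in a comparison, 8 of 9 could be judged in cultures. For Ndrg2-KO against untreated DCs, 2 of 8 (Spp1 and Itgb5) were 2-fold or more higher and 0 lower, where 9.12% of 12461 genes were higher and 7.94% lower. For VD3 against untreated DCs, 1 (Itgb3) was higher and 1 (Cd44) lower, beside 3.68% and 6.61% of 12296 genes. For Ndrg2-KO against VD3 DCs, 3 (Spp1, Cd44 and Itgb5) were higher and 1 (Itgb3) lower, beside 12.1% and 8.08% of 12402 genes. The Ndrg2-KO comparisons share 1 library and the comparisons with untreated DCs share another, so their counts are not separate evidence.

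Genes that act on osteopontin stood higher in Ndrg2-KO DCs as well. Of 13 listed genes whose products cut, phosphorylate, dephosphorylate or cross-link it, 9 had at least 100 UMIs. Of these, 7 were 2-fold or more higher with the knockout and 0 lower, beside 9.12% and 7.94% of 12461 genes. The median log2 ratio of the 9 was 1.93 against -0.058 for all genes tested. Acp5, a phosphatase of osteoclasts and macrophages that dephosphorylates osteopontin, had 22.8 CPM in untreated cells and 223 CPM in knockout cells (log2 ratio 3.29, 3.23 to 3.34). Tgm2, the transglutaminase that cross-links osteopontin, was at 11.7 and 85.3 CPM (2.87, 2.79 to 2.95). In VD3 against untreated DCs the same list had 2 genes higher and 4 lower, beside 3.68% and 6.61% of 12296 genes. Tgm2 (1.81) and Mmp9 (1.34) were higher. Mmp12, the macrophage elastase, had 1864 CPM in the untreated culture against 105 CPM with VD3 (-4.16, -4.18 to -4.13). Plau, the urokinase gene, was lower as well (-2.87).

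Other ligands of the same integrins differed between the cultures too. Of 7 that could be judged, 4 were 2-fold or more higher with Ndrg2-KO and 1 lower, beside 9.12% and 7.94% of all genes, among them the fibronectin gene Fn1 (388 CPM without and 2687 CPM with the knockout, log2 ratio 2.79) and the thrombospondin gene Thbs1 (1.63). Vcam1, a ligand of the α4 chain, was lower (-1.24). In VD3 DCs 0 were higher and 4 lower, beside 3.68% and 6.61% of all genes, with Vcam1 at -3.89 and Fn1 at -3.24. Among the other integrin subunits, Itgb2, the β chain of the leukocyte integrins, was 1.39 higher on the log2 scale in Ndrg2-KO DCs (192 and 504 CPM), and Itgae, a cDC1 marker, was 4.30 lower on that scale (log2 ratio -4.30). In VD3 DCs Itgam (-1.92) and Itgal (-1.33) were lower and Itgb7 higher (1.5). The adhesion kinase gene Ptk2 was the only gene of 10 judged in the adhesion signalling list past 2-fold in Ndrg2-KO DCs (1.39), and Vcan the only one of 8 judged CD44 partners (1.01). The last 2 counts are near the 9.12% of all genes that were higher in that comparison. Of 4 relatives of Spp1 in its gene family, 0 reached 100 UMIs.

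In the wounds, Spp1 was found mostly in neutrophil-like cells and in an unnamed cluster with Mmp12 and Arg1, and its level differed between the 3 wound libraries. Spp1 was at 846 CPM with control DCs, 3515 CPM with Ndrg2-KO DCs and 2313 CPM with the blank hydrogel. At 1000 UMIs per cell, 22.9% (21 to 24.8), 46.2% (44.9 to 47.5) and 35.5% (33.8 to 37.1) of cells had a Spp1 UMI. The blank wounds, which received no cells, thus lay between the 2 DC-treated wounds. The log2 ratio was 2.05 (2.04 to 2.07) for Ndrg2-KO against control DCs, 1.45 (1.43 to 1.47) for blank against control and 0.60 (0.59 to 0.62) for Ndrg2-KO against blank.

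The libraries differed in their cells. Neutrophil-like cells made up 23.5% of cells with control DCs, 50.9% with Ndrg2-KO DCs and 45.6% with the blank hydrogel, and fibroblast-like cells 25.3%, 8.75% and 9.76%. When each cluster of the Ndrg2-KO wound library was weighted by the share of UMIs it had in the control library, Spp1 came to 1623 CPM and the log2 ratio was 0.94 in place of 2.05. The same weighting took the blank library to 1075 CPM and its ratio to 0.34 in place of 1.45. For Ndrg2-KO against blank wounds, the weighted ratio was 0.54 and the plain one 0.60. The weighting was chosen after the data had been seen.

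**Figure D3:**
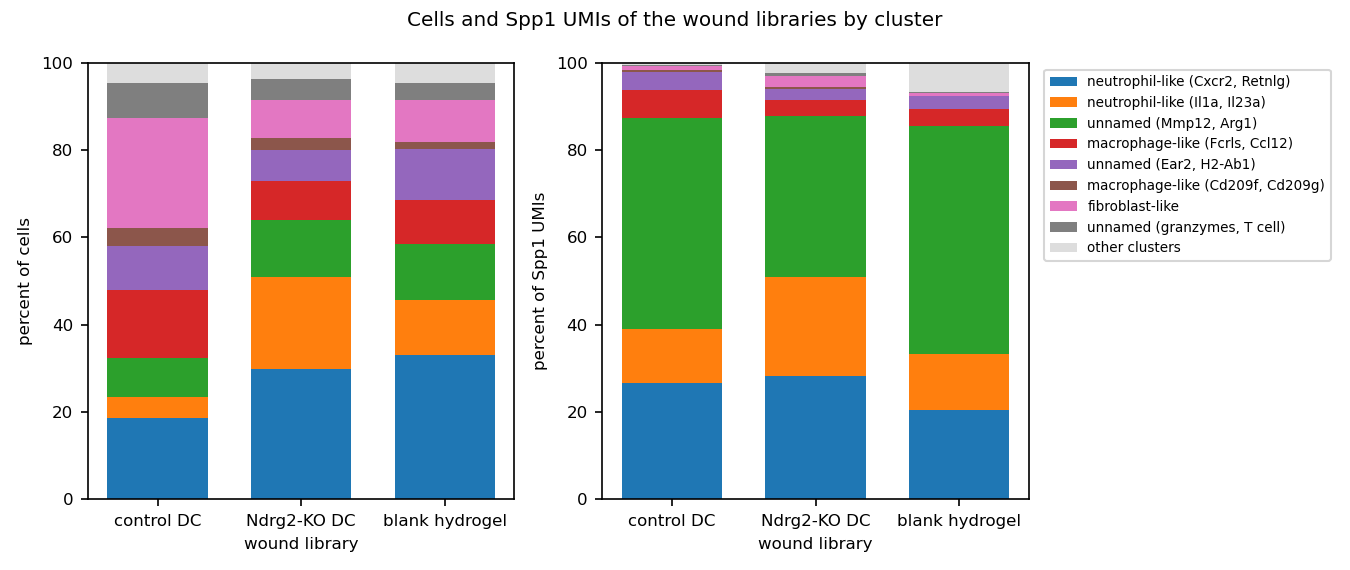
Share of cells (left) and share of Spp1 UMIs (right) by cluster in the 3 wound libraries, in percent. Neutrophil-like cells made up 23.5%, 50.9% and 45.6% of the cells, and the unnamed cluster with Mmp12 and Arg1 held 48.2%, 36.8% and 52.3% of the Spp1 UMIs in control DC, Ndrg2-KO DC and blank wounds.

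Across the wound clusters Spp1 had 3 high sources. The neutrophil-like cluster led by Cxcr2 and Retnlg held 5319 CPM in control, 9543 CPM in Ndrg2-KO and 4092 CPM in blank wounds. A second neutrophil-like cluster, with the cytokine genes Il1a and Il23a among its leading genes, held 8506, 8485 and 5621 CPM. The unnamed cluster with Mmp12, Mmp13 and Arg1 on top, genes known from matrix-degrading and arginine-metabolising macrophages, held 4855, 7360 and 6573 CPM. The ranges of these 3 clusters over the libraries overlapped, so they could not be ordered among themselves. Of all Spp1 UMIs of a library the Cxcr2 cluster held 26.7%, 28.2% and 20.4%, the Il1a cluster 12.4%, 22.8% and 12.8% and the Mmp12 and Arg1 cluster 48.2%, 36.8% and 52.3%. The Il1a cluster of the control wounds was small, with 97 cells, of which 5 held 45.5% of its Spp1 UMIs. A Spp1 UMI was found in 53.2% (42.6 to 63.6), 55.9% (53.0 to 58.7) and 45.3% (40.4 to 50.1) of cells of this cluster.

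All other clusters were lower, and 5 of them had at least 50 cells in each library. The macrophage-like cluster with Fcrls and Ccl12 held 437, 1127 and 805 CPM, and the unnamed cluster with Ear2 and H2-Ab1, which carried monocyte markers, 493, 1152 and 607 CPM. The macrophage-like cluster with Cd209f, Cd209g and Lyve1 held 57.6, 187 and 146 CPM. Fibroblast-like cells held 16.7, 360 and 50.9 CPM and the unnamed cluster with T cell markers and granzymes 25, 940 and 331 CPM. In each of these 5 clusters the order was Ndrg2-KO, blank, control. Smaller clusters did not all share it: keratinocyte-like cells (24, 42 and 64 cells) were at 13.7, 733 and 1613 CPM and proliferating cells (26, 65 and 49 cells) at 14.4, 608 and 1291 CPM, with the blank wounds highest in both, and 63 erythroid-like cells of the Ndrg2-KO wounds were at 2874 CPM. The neutrophil gene S100a9 had the same order in 4 of the 5, the Cd209f cluster being the exception, and in the Mmp12 and Arg1 cluster it was at 45.7, 2653 and 811 CPM. Whether neutrophil RNA had a part in the Spp1 of these clusters was not tested.

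**Figure D4:**
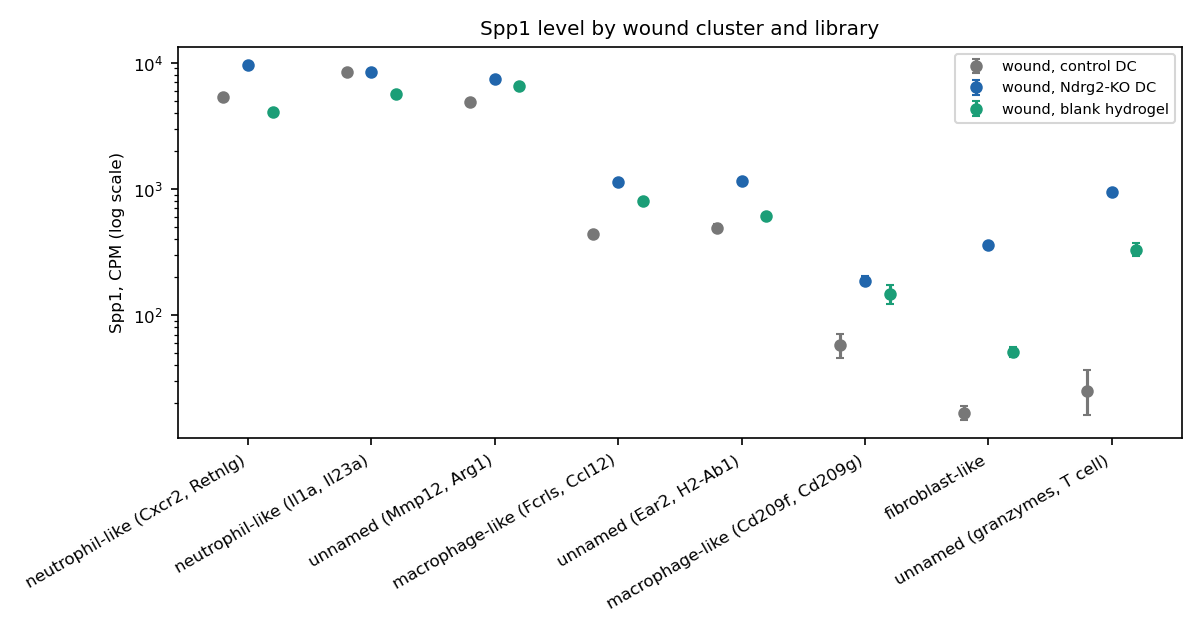
Spp1 level (CPM, log axis) in 8 wound clusters for the 3 wound libraries, with bars for the 95% Poisson interval. The clusters on the left, with Cxcr2, Il1a or Mmp12 among their leading genes, lie between 4092 and 9543 CPM in every library, and the Ndrg2-KO wounds are highest in 7 of the 8 clusters; in the Il1a cluster control and Ndrg2-KO wounds lie together at 8506 and 8485 CPM.

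Within neutrophil-like cells as a class, Spp1 was at 6036, 9039 and 4570 CPM, giving log2 ratios of 0.58 (0.55 to 0.61) for Ndrg2-KO against control, -0.40 (-0.43 to -0.37) for blank against control and 0.98 (0.96 to 1.0) for Ndrg2-KO against blank. For Ndrg2-KO against control the ratio was 0.84 (0.81 to 0.88) in the Cxcr2 cluster and -0.0037 (-0.056 to 0.049) in the Il1a cluster. Without the top 5 cells of each library the Il1a cluster was at 5359, 8153 and 4922 CPM, but this took 5 of 97 control and 5 of 1201 Ndrg2-KO cells, so these levels are not matched. In the Il1a cluster 20.6%, 23.5% and 18.7% of cells gave at least 1% of their UMIs to Spp1. The Cxcr2 cluster held 78.8%, 58.5% and 72.4% of all neutrophil-like cells. In that cluster 43.1% (37.9 to 48.5), 60.1% (57.7 to 62.5) and 41.5% (38.6 to 44.5) of cells had a Spp1 UMI, and 15.6%, 29.8% and 15.8% were rich in it, with at least 1% of their UMIs. Control and blank wounds thus nearly agreed on both measures, and the Ndrg2-KO wounds were higher. As background, cells of the cluster with T cell markers had a Spp1 UMI in 1.32%, 8.96% and 7.75% of cells, at median depths of 6314, 4923 and 6278.5 UMIs against 3292, 2769 and 3306 in the Cxcr2 cluster.

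Over all cell types, Spp1-rich cells made up 5.80% of control, 16.8% of Ndrg2-KO and 10.2% of blank wound cells, and the highest cell gave 15.9% of its UMIs to Spp1. Per Arg1 UMI the Mmp12 and Arg1 cluster held 1.70 to 2.63 Spp1 UMIs, whereas the neutrophil-like clusters held 491 to 6701, where both control values rest on 1 Arg1 UMI each. Per UMI of Apoe, a lipid carrier of macrophages, the former held 0.491 to 1.67 and the neutrophil-like clusters 21.1 to 72.3.

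In several low clusters Spp1 rested in large part on few cells. In fibroblast-like cells the log2 ratio of Ndrg2-KO to control wounds was 4.43 (4.24 to 4.62), but 5 of 497 cells held 73.9% of the Spp1 UMIs of the Ndrg2-KO library. Without the top 5 cells of each library the levels were 9.40, 96.0 and 31.9 CPM and the ratio 3.35, and across the other settings it ran from 3.13 to 5.57. In the cluster with T cell markers, 5 cells held 85.1% of the UMIs in the Ndrg2-KO library, and without them the levels were 7.04, 152 and 67.3 CPM. S100a9 in the fibroblast-like cells was at 58.1, 406 and 272 CPM in control, Ndrg2-KO and blank wounds. The part of free RNA or of mixed droplets in these low levels was not tested. The top cells were left out after the data had been seen.

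The receptors were divided among the wound cells in much the same way in all 3 libraries, here over the 8 clusters with at least 50 cells in each library. Cd44 was highest in neutrophil-like cells, at 1908 CPM on average in the Cxcr2 cluster (1827 to 2040 over the libraries) and 1787 CPM (1609 to 1969) in the Il1a cluster. Next came the Mmp12 and Arg1 cluster with 1017 CPM (976 to 1038) and the Ear2 cluster with 1000 CPM (941 to 1061), which overlapped each other and lay apart from the neutrophil-like cells. Macrophage-like cells with Fcrls (645 CPM) and fibroblast-like cells (614 CPM) overlapped as well, and the macrophage-like cluster with Cd209f (229 CPM, 167 to 302) and the cluster with T cell markers (313 CPM, 277 to 357) were lowest, with overlapping ranges. The share of Cxcr2 cluster cells with a Cd44 UMI was 81.2%, 78.1% and 77.7%, against 19.1% to 28.0% of cells in the cluster with T cell markers.

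Several integrin chains were sparse in the neutrophil-like Cxcr2 cluster. Itgb5 was at 1.73 CPM and Itga9 at 0.957 CPM on average there, and Itgav at 20.2 CPM, with Itgb1 at 63.0 CPM (45.2 to 88.6). Itga4 was at 24.6, 28.3 and 25.8 CPM there in control, Ndrg2-KO and blank wounds, above fibroblast-like cells (0.754, 2.16 and 2.81 CPM). Itga5 was at 37.3, 26.6 and 53.9 CPM in the Cxcr2 cluster and at 30.1, 47.5 and 71.5 CPM in the Il1a cluster. Fibroblast-like cells had the highest levels of Itgb1 among these 8 clusters (439 CPM, 421 to 452), of Itgb5 (149 CPM, 132 to 159) and of Itga5 (157 CPM, 149 to 162). A proliferating cluster that reached 50 cells only in the Ndrg2-KO wounds had more of 2 of these chains there, at 695 CPM of Itgb1 and 188 CPM of Itga5. Its 26 control and 49 blank wound cells had 228 and 418 CPM of Itga5. Neutrophil-like cells with Cxcr2 thus had the lowest Itgb1 of the 8 clusters, and their Cd44 range overlapped only with that of the Il1a cluster.

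The α chains differed in the cells that held them, again among the 8 clusters. Itgav was highest in the Mmp12 and Arg1 cluster (142 CPM, 136 to 150), above fibroblast-like cells (116 CPM, 108 to 128) and macrophage-like cells with Fcrls (95.9 CPM, 88.5 to 106), each range apart from the next. Itga4 was highest in the Ear2 cluster (88.3 CPM, 75.2 to 105), whose range overlapped with that of the T cell marker cluster (76.3 CPM) and the Fcrls macrophage-like cells (74.7 CPM). Fibroblast-like cells had almost none of it, at 1.91 CPM. Outside the 8 clusters, 28 DC-like cells of the blank wounds, led by Apol7c, Ccl22 and Ccr7, had far more Itga4 at 523 CPM (456 to 597) and held 16.5% of the Itga4 UMIs of their library. Itga9 was highest on average in the macrophage-like clusters, with 51.7 CPM (45.4 to 55.8) in the Fcrls and 36.9 CPM (35.7 to 37.9) in the Cd209f cluster. It was at 33.9 CPM (19.8 to 50.1) in the Mmp12 and Arg1 cluster, whose range overlapped with both, and at 17.1 CPM in fibroblast-like cells. Itgb3 was held by the T cell marker cluster (82.6 CPM, 65.3 to 94.3), whose leading genes also included the mast cell genes Mcpt4 and Cma1, and by fibroblast-like cells (46.5 CPM, 43.0 to 50.4), and was at 0.840 CPM in Fcrls macrophage-like cells.

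**Figure D5:**
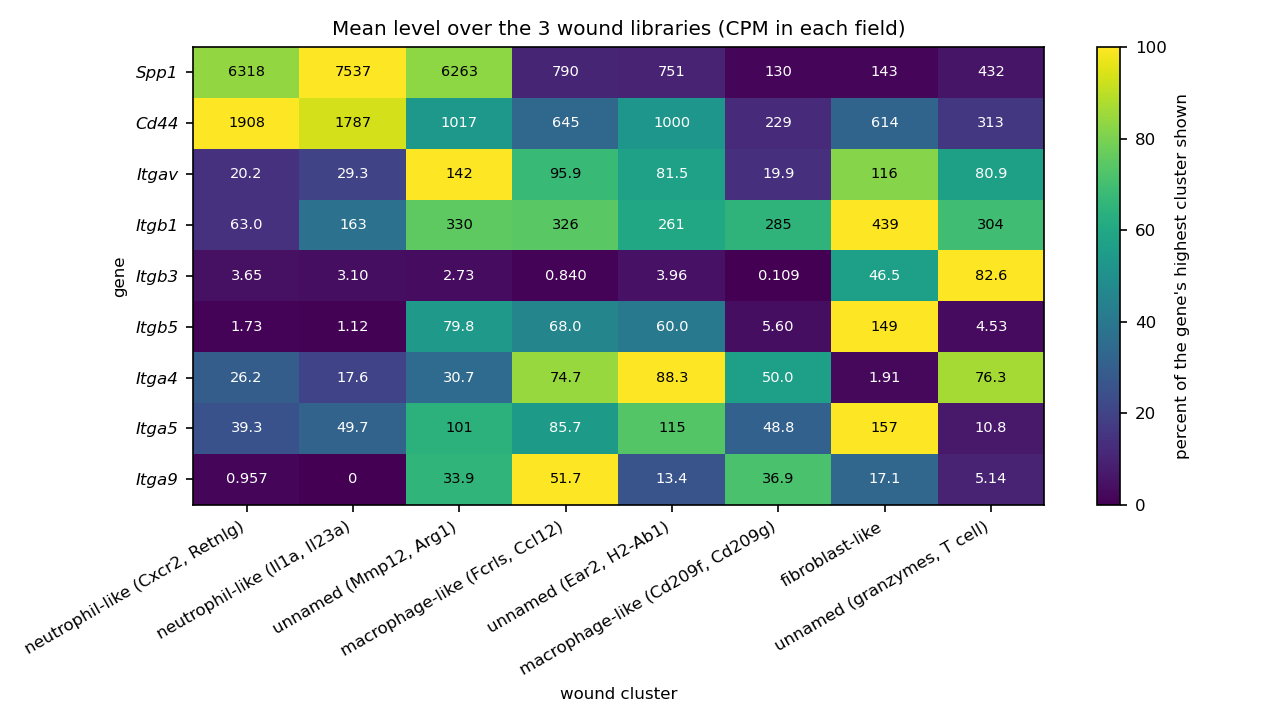
Mean level over the 3 wound libraries (CPM, printed in each field) of the 9 genes in 8 wound clusters, coloured as a percentage of the highest cluster of that gene. Cd44 is brightest in the neutrophil-like clusters (1908 and 1787 CPM), where Itgb5 and Itga9 are at or below 1.73 CPM, and Itgb1, Itgb5 and Itga5 are brightest in fibroblast-like cells.

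Over whole libraries the receptors differed less than Spp1 between the control wounds and either other library. Cd44 was at 760, 884 and 915 CPM, Itgav at 98.6, 88.4 and 98.4 CPM, Itgb1 at 378, 320 and 353 CPM and Itga5 at 124, 99.6 and 128 CPM in control, Ndrg2-KO and blank wounds. Itgb3 was at 30.6, 20.3 and 19.5 CPM, Itgb5 at 103, 62.1 and 82.5 CPM, Itga4 at 30.0, 31.1 and 37.8 CPM and Itga9 at 21.4, 16.9 and 26.2 CPM. Of the 9 members, 1 (Spp1) was 2-fold or more higher and 0 lower in Ndrg2-KO than in control wounds, beside 3.92% higher and 5.28% lower among 12207 genes. For blank against control the counts were 1 (Spp1) and 0, beside 3.06% and 3.17% of 11916 genes, and for Ndrg2-KO against blank 0 and 0, beside 1.39% and 1.32% of 12248 genes. In that last comparison Itga9, at a log2 ratio of -0.63 (-0.77 to -0.49), was as far from 0 as Spp1 at 0.60. The lower Itgb5 of Ndrg2-KO wounds (log2 ratio to control -0.73, -0.80 to -0.66) came to -0.22 when clusters were weighted as in the control library, and Itgb3 went from -0.59 to 0.057. The first 2 of these comparisons share the control library, and the Ndrg2-KO wounds enter 2 of the 3.

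Within clusters some receptor levels did differ. In the Mmp12 and Arg1 cluster Itga4 was at 44.9 CPM in control, 17.7 CPM in Ndrg2-KO and 29.6 CPM in blank wounds, a log2 ratio of -1.34 (-1.71 to -0.98) for Ndrg2-KO against control from 153 and 112 UMIs. Itga5 went the other way in this cluster, at 77.4, 114 and 112 CPM (0.56, 0.34 to 0.79). Its Itgb5 was at 87.5, 56.7 and 95.3 CPM and its Itga9 at 31.7, 19.8 and 50.1 CPM, so Ndrg2-KO wounds were lowest in both. In the macrophage-like cluster with Cd209f, Itga5 was at 74.8 CPM in control against 35.9 and 35.7 CPM in Ndrg2-KO and blank wounds. In fibroblast-like cells Itgav (108, 128 and 112 CPM), Itgb1 (452, 444 and 421 CPM) and Itga5 (161, 162 and 149 CPM) lay close together over the libraries.

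Both chains of a receptor were seldom seen in the same wound cell at 1000 UMIs. The pair Itga5 and Itgb1 was found in 2.24% (1.62 to 3.0) of control, 1.45% (1.15 to 1.80) of Ndrg2-KO and 2.28% (1.80 to 2.84) of blank wound cells, and Itgav with Itgb1 in 2.18%, 1.45% and 1.98%. In fibroblast-like cells these pairs reached 4.51%, 3.53% and 3.07% for Itga5 and 3.69%, 4.37% and 3.68% for Itgav. In the Cxcr2 cluster the same 2 pairs were in at most 0.454% of cells. The Itga4 and Itgb1 pair was in 2.72%, 1.23% and 1.52% of Fcrls macrophage-like cells, in 1.03%, 1.75% and 1.85% of cells of the Ear2 cluster and in 0%, 0% and 0.307% of fibroblast-like cells.

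The genes that act on osteopontin were mixed in the wounds. Of 10 judged, 4 were 2-fold or more higher and 2 lower with Ndrg2-KO than with control DCs (median log2 ratio 0.35 against -0.14 for all genes), beside 3.92% and 5.28% of all genes. Mmp9, a neutrophil gelatinase, was at 31.3 and 124 CPM in control and Ndrg2-KO wounds (1.98) and Tgm2 at 95.5 and 220 CPM (1.21). The fibroblast proteases Mmp2 (881 and 349 CPM, -1.33) and Mmp3 (498 and 231 CPM, -1.11) were lower. Of 11 other integrin ligands 0 were higher and 3 lower, with Postn, periostin of fibroblasts, at 1950 and 487 CPM (-2.0) and Tnc, tenascin C, at 318 and 87.8 CPM (-1.86). Srgn, the CD44-binding proteoglycan of leukocyte granules, was at 1254 and 3767 CPM (1.59), and the collagen-binding Itga11 at 23.9 and 6.09 CPM (-1.97). The shares of neutrophil-like and fibroblast-like cells differed between the same libraries, and their part in these values was not tested.

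The genes whose pattern was most like that of Spp1 differed between the culture and the wounds. Over 25 culture units (a cluster in a library, at least 50 cells) and 2849 genes, Pearson's r of log2(CPM + 10) with Spp1 was 0.91 for the cathepsin gene Ctsl, 0.90 for Ctsb, 0.89 for Fn1 and 0.89 for the scavenger receptor gene Msr1. Over 27 wound units and 3375 genes it was 0.92 for the cystine transporter gene Slc7a11, 0.90 for Pilra and 0.89 each for Clec4e, Arg2 and the ferritin gene Fth1. Units of 1 library share its depth and free RNA, so these values are descriptions. Among the receptors, Itgb5 had Spp1 among its 5 most similar genes in the cultures, with r = 0.86. Itgb3 was followed in the cultures by the basophil genes Cpa3 (0.99) and Prss34 (0.98), and in the wounds by Thy1 (0.97).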

How the data were processed

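Cells were captured with droplet 3′ chemistry, and the deposited matrices hold raw UMI counts per gene and cell, which the authors made with Cell Ranger (version 3.1.0 for cultures and 6.0.0 for wounds, per the file headers). The study's methods name mm10, whereas the submitters' processing notes list mm9 and Seurat 3.1.1. The gene identifiers (30934 of 31053) matched GENCODE M21 on GRCm38. Different versions were used for cultures and wounds, so their levels were not compared. A 3′ count does not scale with gene length, and no order of levels between genes was drawn. Ratios of Spp1 to Arg1 or Apoe UMIs were compared between clusters only.

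Kept cells had 300 or more genes, fewer than 100000 UMIs and a mitochondrial share below 10%. Counts were summed per library or cluster and given as CPM with exact 95% Poisson intervals. Log2 ratios had exact conditional binomial intervals, and shares Clopper-Pearson intervals after each cell was drawn to 2000 (cultures) or 1000 (wounds) UMIs. With 1 library per condition no test or p-value is given. Genes were judged with at least 100 UMIs in a comparison and called past 2-fold. Clustering used Seurat 5.3.0 in R 4.3.3 (10000 UMIs per cell, 2000 variable genes without the 9 members, 15 components, 15 neighbours, Louvain resolution 0.5). Naming a cluster took 3 or more listed markers at 50 CPM and 2-fold over the other cells, with no other list leading its 10 top genes. Doublets were kept, and leaving out the highest 6% of Scrublet scores was an alternative, because the automatic threshold marked at most 0.873% of cells. Python 3.11.15 with NumPy 2.4.6, pandas 2.3.3, SciPy 1.17.1, scanpy 1.11.5 and matplotlib 3.10.9 was used. The ratio code was tested on simulated counts.

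Groups came from the labels. The labels call the control DCs of the wounds untreated, while the study's methods describe nucleofection with control guides. The series text mentions GFP+ cells of parabiosis wounds, which the sample labels do not, and reporter UMIs were 1 in the Ndrg2-KO wound library and 0 elsewhere. The 9 members and the gene lists were chosen with earlier results of these data known. Besides the members, up to 2 higher and 2 lower genes per list (at least 200 UMIs) and the 5 genes most like Spp1 (at least 100 CPM in a unit) are named. One gene that this rule names is not reported here. The other genes named with receptor correlations, the leading genes of clusters and S100a9, Arg1 and Apoe were chosen after their values were seen.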

Additional observations from a re-analysis of the deposited data

Results flagged for a closer look

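In 4 cases a member differed between 2 libraries in opposite directions in 2 clusters, with neither counting interval reaching 0. The difference between the clusters was not tested, since each library is a single sample.

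Itga4, the α chain that pairs with β1 on lymphoid and myeloid cells, had a log2 ratio of Ndrg2-KO to control wounds of 1.52 in fibroblast-like cells and of -1.34 in the unnamed cluster with Mmp12 and Arg1. The fibroblast-like value came from 26 and 11 UMIs at 2.16 and 0.754 CPM, so both levels there were low.

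Itga5, the fibronectin receptor chain, had a log2 ratio of blank to control wounds of 1.25 in the neutrophil-like cluster with Il1a (131 and 11 UMIs) and of -1.07 in the macrophage-like cluster with Cd209f (32 and 113 UMIs).

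Itgb5 had a log2 ratio of VD3 to untreated DCs of 1.30 in the unnamed cluster with Elane and Prtn3 and of -2.23 in basophil-like cells, the latter from 5 and 20 UMIs.

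Spp1 had a log2 ratio of VD3 to untreated DCs of 3.08 in the cluster with Elane and Prtn3 and of -2.33 in the granulocyte- or monocyte-like cluster with Stfa2 and Csf3r. Its levels were 997 and 118 CPM in the first and 132 and 664 CPM in the second, for VD3 and untreated DCs, while over the whole libraries the ratio was 0.17. The first of these clusters held 1080 VD3 and 98 untreated cells.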

How the results depend on the processing

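With 1 library per condition, no alternative could measure the spread between wounds or cultures, and levels under about 10 CPM rest on few UMIs in most clusters. No paired analysis was possible because the labels give no replicate numbers and each group has 1 library. The log2 ratio of Spp1 for VD3 against untreated DCs (0.17) was 0.20 with all deposited barcodes or as a mean over cells, 0.25 without the highest Scrublet scores or with median-ratio size factors, 0.26 without mitochondrial and ribosomal protein genes and -0.30 with cells under 5% mitochondrial UMIs. For Ndrg2-KO against untreated DCs (3.08) the same settings gave 3.04, 3.12, 3.13, 3.15, 2.98 and 3.1. For Ndrg2-KO against control wounds (2.05) the values were 1.99 with all barcodes, 2.0 with a limit of 300 UMIs, 1.95 without the highest Scrublet scores, 2.19 with median-ratio factors, 1.57 as a mean over cells and 0.94 with clusters weighted as in the control library. For blank against control wounds (1.45) they were 1.48 with 300 UMIs, 1.33 without the highest scores, 1.48 with median-ratio factors, 0.69 as a mean over cells and 0.34 with weighted clusters. The weighting was chosen after the data had been seen. Members past 2-fold in VD3 against untreated DCs numbered 1 rather than 2 with all barcodes or as a mean over cells. They numbered 3 rather than 1 in Ndrg2-KO against control wounds as a mean over cells or at 1.5-fold, 2 rather than 1 in blank against control and 2 rather than 0 in Ndrg2-KO against blank at 1.5-fold. Directions turned in proliferating cells of VD3 against untreated DCs, of which 1456 of 1471 VD3 cells and 1696 of 2259 untreated cells lay in different clusters. There Spp1 (-1.06) came to 0.28 at Louvain resolution 1.0, and with 30 principal components Spp1 came to 0.95, Itgav (-2.09) to 0.34, Itgb1 (-2.04) to 0.92, Itgb5 (-1.83) to 0.65, Itga4 (-3.92) to 0.17 and Itga5 (-2.52) to 0.55. Itgb3 in neutrophil-like cells of blank against control wounds (1.15, -0.57 to 3.52) came to -0.045 with 30 components. The alternatives change the set of cells, the clusters or the weights; the cause was not tested further. Of the alternative values for the main Spp1 library ratios and the counts past 2-fold, 55 stayed near the main value and 29 moved. Of those for all other ratios, shares and levels, 791 stayed within the interval or range of the main value. Of the rest, 464 moved outside it and 8 turned direction.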
